A study of Mus musculus with 3 samples.

Results

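RNA from nuclei of CCE cells, a line of mouse embryonic stem cells grown without feeders in medium with serum and LIF and given no treatment, was sequenced after immunoprecipitation (RIP) with an antibody against Mettl3 or against Zfp217, and as input. Each of the 3 groups (Mettl3 RIP, Zfp217 RIP and Input) had 1 library, so no p-value could be computed and every ratio compares libraries. No precipitation with a control antibody was analysed here. Both RIPs were compared with the same input, so the ratios of the antibodies share its error. The RNAs described are 7 named long noncoding RNAs: Tug1, Neat1, Malat1, Meg3, Rian, Tsix and Gas5. They were chosen by gene symbol, and every transcript listed under these symbols in either of the 2 deposited tables was taken, 20 of 13595 transcripts listed in all. The Mettl3 table held 15 of them, out of 9501 transcripts, from every gene except Malat1. The Zfp217 table held 11, out of 8120 transcripts, from every gene except Rian and Tsix. Levels are in FPKM, fragments scaled by transcript length and sequencing depth. Each table held only transcripts whose RIP level was 1 FPKM or more and 1.5-fold or more above the input, so a transcript that was lower or equal in the RIP could not appear. Of the 8 stem cell markers examined, 6 were listed in each table (Pou5f1, Sox2, Nanog, Klf4, Esrrb and Dppa4), and no marker of primitive endoderm, mesoderm, neural cells or fibroblasts was listed.

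The methyltransferase Mettl3 places m6A, a methyl group on adenosines inside RNA chains. Zfp217 is a zinc finger factor that acts on chromatin. The RNAs differ in kind. Neat1 is the scaffold of nuclear bodies called paraspeckles, and Malat1 is an abundant RNA of nuclear speckles. Meg3 and Rian are made from the maternal copy of an imprinted cluster. Tsix is transcribed antisense to Xist, the RNA that silences an X chromosome, and counteracts it. Tug1 is a spliced noncoding RNA found in many tissues. Gas5 is neither imprinted nor confined to the nucleus: it is the host gene of small nucleolar RNAs (snoRNAs), which are cut from its introns, and its spliced RNA also reaches the cytoplasm.

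Most listed transcripts of a gene overlapped, and the tables divided reads among them by estimation. The sequences that set them apart are therefore shown first, from the GENCODE M21 transcripts on GRCm38. Of the 4720 bases of the Tug1 transcript ENSMUST00000144852, 60 lay in no other listed Tug1 transcript, and these were its first exon. The capitals mark this exon in the first line (minus strand, chr11:3647059-3648812, an intron included). In the second line they mark the 60 bases that ENSMUST00000153313 has in the same place (minus strand, chr11:3647059-3647138). The lower-case bases are shared.
Tug1 ENSMUST00000144852: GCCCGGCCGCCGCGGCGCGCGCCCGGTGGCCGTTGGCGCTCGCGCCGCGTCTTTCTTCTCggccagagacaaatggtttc
Tug1 ENSMUST00000153313: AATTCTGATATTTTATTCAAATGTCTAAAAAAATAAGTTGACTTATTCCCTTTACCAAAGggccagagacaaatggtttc
The first exon of ENSMUST00000144852 was 81.7% G or C, against 23.3% for the stretch of ENSMUST00000153313.

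Neat1 ENSMUST00000174829 had no exonic base of its own. It was told apart by splice junctions, of which 2 of 3 were absent from the main short transcript ENSMUST00000174287. The capitals mark the end of the upstream exon (minus strand, chr19:5844947-5845226 and chr19:5844415-5844597, introns included).
Neat1 ENSMUST00000174829 exons 1 and 2: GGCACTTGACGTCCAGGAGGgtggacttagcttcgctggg
Neat1 ENSMUST00000174829 exons 3 and 4: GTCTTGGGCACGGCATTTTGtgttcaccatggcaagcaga
The only listed Malat1 transcript, ENSMUST00000173314, joins a pair of stretches near the 3′ end of the gene across the junction below (minus strand, chr19:5795766-5797023, intron included, upstream exon in capitals).
Malat1 ENSMUST00000173314 junction: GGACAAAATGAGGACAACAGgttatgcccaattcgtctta

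In the Mettl3 RIP, 9 of 15 listed transcripts were at least 2-fold higher than the input on the scale log2((RIP + 1)/(input + 1)) in FPKM, against 57.7% of all listed transcripts. In the Zfp217 RIP 10 of 11 were, against 58.4%. The input was listed at 0 FPKM for 5 member transcripts in each table (background 31.4% and 38.9%). Such a transcript needs only 1 FPKM in the RIP to be 2-fold higher on this scale, so all of these passed by construction. Among those with an input of at least 0.01 FPKM, 4 of 10 passed for Mettl3 (background 34.1%) and 5 of 6 for Zfp217 (background 25.6%). As plain ratios with an input of at least 1 FPKM, 5 of 10 were at least 2-fold higher for Mettl3 (background 54.3%) and 4 of 5 for Zfp217 (background 39.3%). The median log2 ratio was 1.14 for the 15 Mettl3 transcripts and 1.43 for the 11 Zfp217 transcripts, and 1.08 and 1.10 over all listed transcripts. The Mettl3 shares were thus close to those of the whole table, and the Zfp217 shares were higher, on few transcripts, mostly of Gas5 and Tug1.

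**Figure D1:**
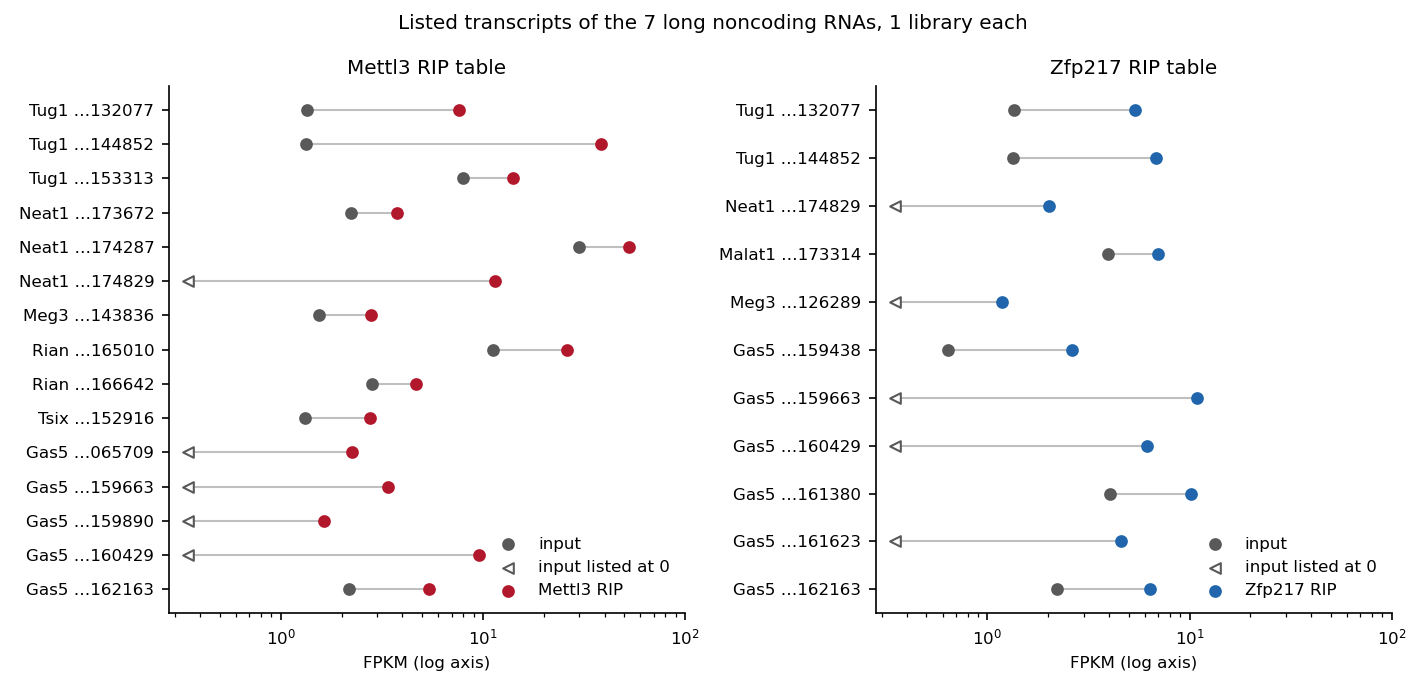
FPKM of every listed transcript of the 7 genes (log axis) in the input and in the Mettl3 RIP (left) or Zfp217 RIP (right), 1 library each; open triangles stand for an input listed at 0 and labels end in the last 6 digits of the transcript identifier. The widest gap with an input above 0 is that of Tug1 ENSMUST00000144852 in the Mettl3 RIP, from 1.33 to 38.4 FPKM.

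**Figure D2:**
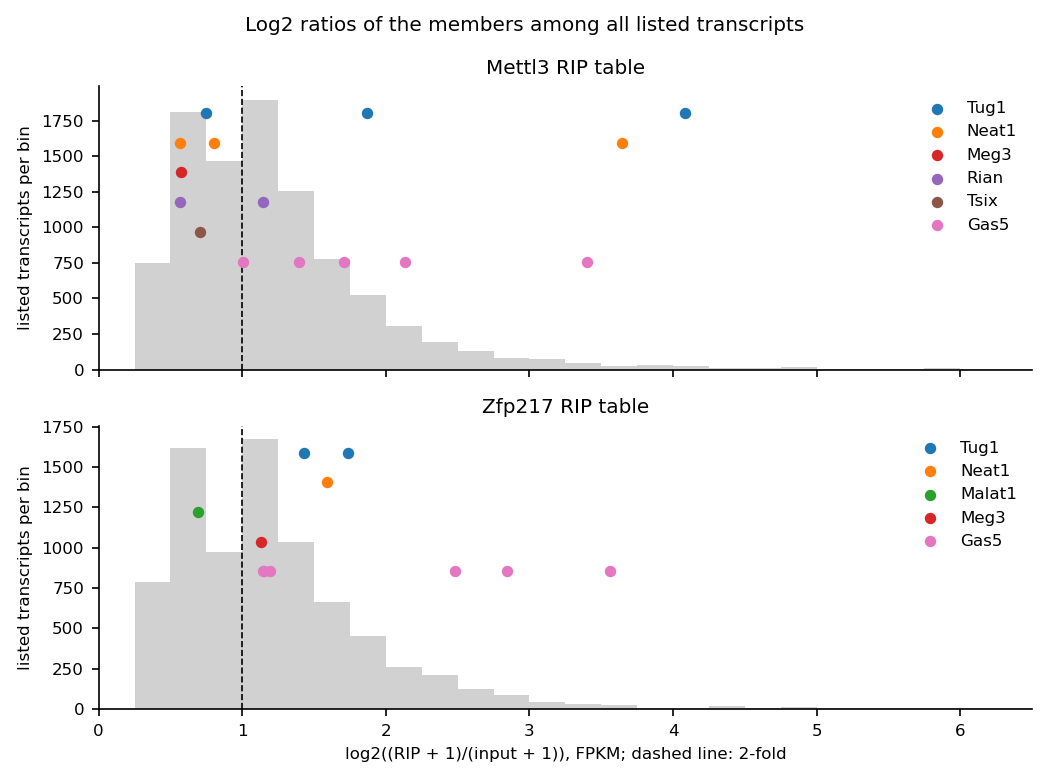
Log2 ratios of the member transcripts (coloured points, whose height has no meaning) over a histogram of all listed transcripts, for the Mettl3 table (top) and the Zfp217 table (bottom). For Mettl3, 6 points of Tug1, Neat1, Meg3, Rian and Tsix sit left of the dashed 2-fold line, for Zfp217 Malat1 alone does, and the horizontal axis ends at 6.5, beyond every member.

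Tug1 had the highest ratio of any member with an input above 0. Its transcript ENSMUST00000144852 was at 1.33 FPKM in the input and 38.4 FPKM in the Mettl3 RIP, 28.9-fold higher (95% counting interval 20.8 to 42.4). The same transcript was at 1.34 FPKM in the input of the Zfp217 table and 6.80 FPKM in the Zfp217 RIP, 5.06-fold higher (3.55 to 7.58). Both RIPs were thus above the input, and the Mettl3 RIP was far above the Zfp217 RIP. Intervals cover counting error only, from estimated reads (about 34.4 in the input and 1659 in the Mettl3 RIP here), and not the error of dividing reads among overlapping transcripts. They assume independent reads, without molecular identifiers.

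The other Tug1 transcripts moved less. ENSMUST00000132077, which keeps an intron of the others, went from 1.35 to 7.59 FPKM in the Mettl3 RIP, 5.64-fold higher (4.21 to 7.72). In the Zfp217 RIP it went from 1.36 to 5.36 FPKM, 3.94-fold higher (2.90 to 5.47). ENSMUST00000153313, the most abundant in the input at 8.02 FPKM, reached 14.2 FPKM in the Mettl3 RIP, 1.77-fold higher (1.52 to 2.07), and was not listed for Zfp217. All bases of this transcript also lie in the others, so its level rests on how reads were divided. Summed over the 3 listed transcripts, Tug1 was at 10.7 FPKM in the input and 60.2 FPKM in the Mettl3 RIP, 5.63-fold higher, of which ENSMUST00000144852 made up 63.8%. The listed transcripts together were therefore much less raised than that transcript alone. In GRCm38 Tug1 lies on chromosome 11 from 3639785 to 3649673 on the minus strand, where it overlaps the start of Morc2a on the other strand. No exon of the listed Tug1 transcripts overlaps an exon of the opposite strand.

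**Figure D3:**
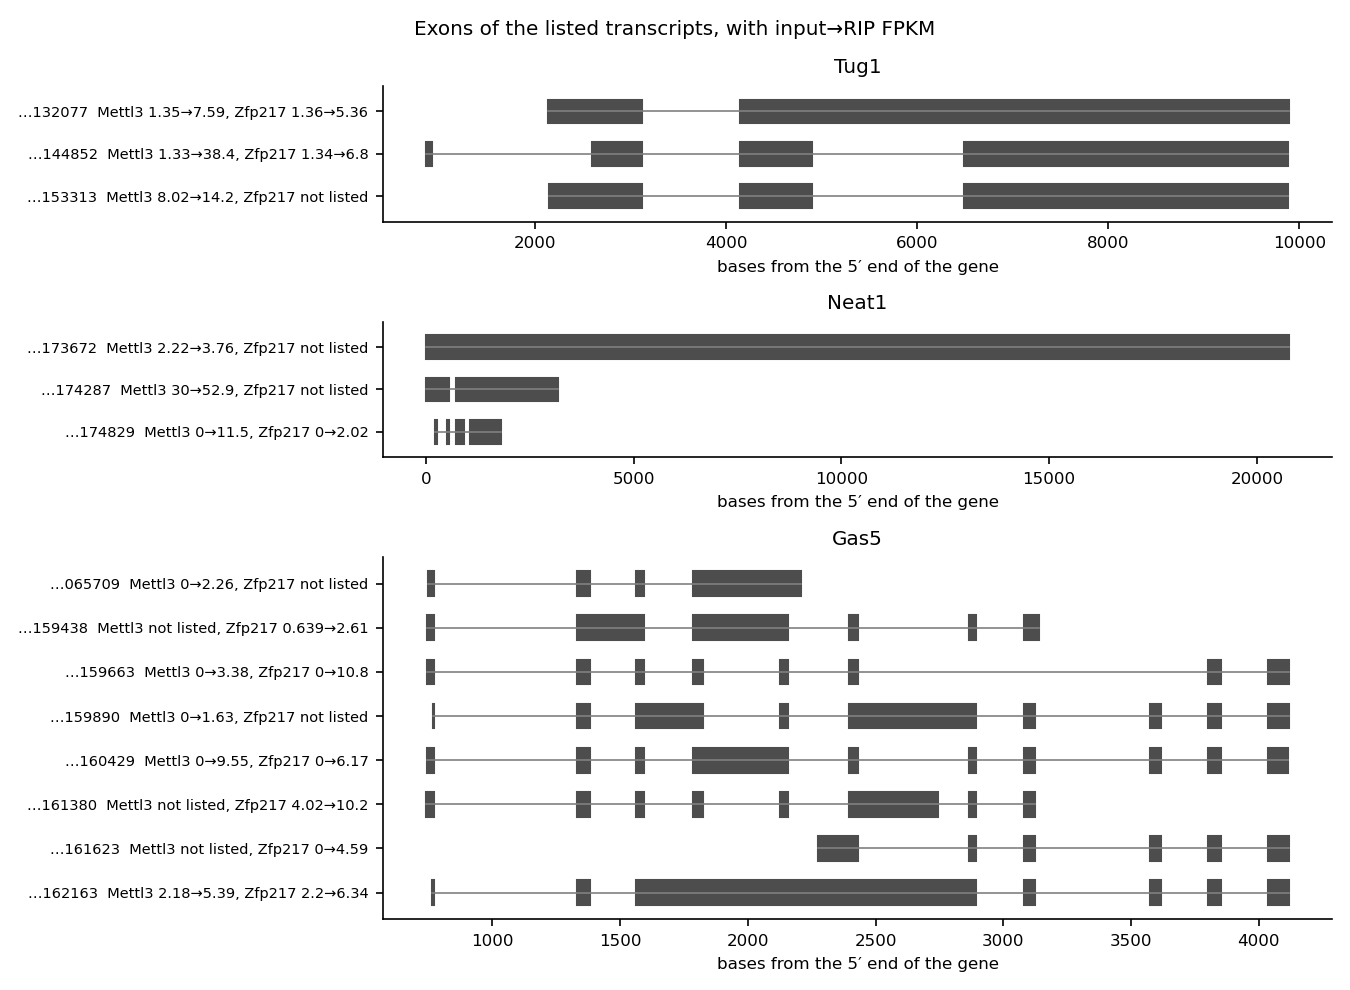
Exons (boxes) and introns (lines) of the listed Tug1, Neat1 and Gas5 transcripts, by distance in bases from the 5′ end of the gene, with input→RIP FPKM for each antibody at the left. Tug1 ENSMUST00000144852 is the only listed Tug1 transcript with the far 5′ exon, and the short Neat1 transcripts lie at the 5′ end of the long one.

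Among the member transcripts in the Mettl3 table, the highest level was that of Neat1. Its short transcript ENSMUST00000174287 (3004 bases) was at 29.95 FPKM in the input and 52.9 FPKM in the Mettl3 RIP, 1.77-fold higher (1.59 to 1.96). The long transcript ENSMUST00000173672 (20771 bases), the form that builds paraspeckles, was at 2.22 and 3.76 FPKM, 1.70-fold higher (1.47 to 1.96). The intervals of the short and the long form overlapped. Both log2 ratios (0.80 and 0.57) were below the median of the table (1.08), which includes inputs of 0. Among transcripts with an input of at least 1 FPKM the median was 0.82, close to that of the short form. ENSMUST00000174829, of 1030 bases, was at 11.5 FPKM in the Mettl3 RIP and 2.02 FPKM in the Zfp217 RIP (about 97.2 and 12.4 reads). It was listed at 0 in the input, which is the same library for both antibodies. Summed over its listed transcripts, Neat1 went from 32.2 FPKM in the input to 68.2 FPKM in the Mettl3 RIP, a ratio of 2.12. Neither of the abundant transcripts was listed for Zfp217. If 1 FPKM and 1.5-fold were the only limits of the tables, they were at most at 45.4 and 3.36 FPKM in the Zfp217 RIP, a level below 1.5 times the input. Neat1 lies on chromosome 19 from 5824708 to 5845478 on the minus strand.

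Malat1, the neighbour of Neat1 at a distance of 22035 bases (chromosome 19, 5795690 to 5802672, minus strand), was listed only for Zfp217 and only with its 556-base transcript. This was at 3.96 FPKM in the input and 7.0 FPKM in the Zfp217 RIP, 1.77-fold higher, with an interval of 0.786 to 4.51 from about 9.31 and 20.3 reads. A difference was not detectable at this depth. The full-length Malat1 transcript was listed in neither table, so no level of it can be given here.

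Of the imprinted pair, Rian was listed only for Mettl3. Its transcript ENSMUST00000165010 was at 11.3 FPKM in the input and 26.1 FPKM in the Mettl3 RIP, 2.31-fold higher. ENSMUST00000166642 was at 2.83 and 4.66 FPKM, 1.65-fold higher. Neither identifier is in GENCODE M21, so lengths, reads and intervals are not given. The sum of both was 2.18-fold higher (30.7 against 14.1 FPKM). Under the same limits of the tables, the sum of these transcripts was at most 21.4 FPKM in the Zfp217 RIP.

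Meg3, 32213 bases upstream of Rian, was at low levels and appeared with a different transcript in each table. ENSMUST00000143836 was at 1.55 FPKM in the input and 2.80 FPKM in the Mettl3 RIP, 1.80-fold higher, and its interval of 1.01 to 3.55 nearly reached 1. ENSMUST00000126289 was at 1.19 FPKM in the Zfp217 RIP, about 5.06 reads, and at 0 in the input. All of its bases lie in the former transcript too. The last exon of ENSMUST00000143836 overlaps 331 bases of exon on the opposite strand. Meg3 lies on chromosome 12 from 109541001 to 109571726 and Rian from 109603940 to 109661716, both on the plus strand.

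Tsix, on the plus strand of chromosome X from 103431517 to 103484957, was listed only for Mettl3. It was at 1.32 FPKM in the input and 2.77 FPKM in the RIP, 2.11-fold higher (1.4 to 3.25), which is below the 2-fold rule on the scale with 1 FPKM added. Of its 4306 exonic bases, 1980 (45.98%) lie over exons of Xist on the opposite strand. The labels do not say that the libraries kept strand, so reads of Tsix and Xist cannot be told apart there. No Xist transcript was listed in either table.

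Gas5 had the most listed transcripts, 8 of 25 annotated, and each listed value was at least 2-fold above its input, 5 of 5 for Mettl3 (57.7% of all listed transcripts) and 6 of 6 for Zfp217 (58.4%). In 4 and 3 of these the input was listed at 0, so they passed by construction. With an input of at least 0.01 FPKM, 1 of 1 (background 34.1%) and 3 of 3 (background 25.6%) remained. The transcript ENSMUST00000162163, which keeps a run of introns, was at 2.18 FPKM in the input and 5.39 FPKM in the Mettl3 RIP, 2.47-fold higher (1.48 to 4.44). In the Zfp217 table it was at 2.20 and 6.34 FPKM, 2.88-fold higher (1.69 to 5.18). Both RIPs were thus above the input to a like extent. ENSMUST00000161380 was at 4.02 FPKM in the input and 10.2 FPKM in the Zfp217 RIP, 2.52-fold higher (1.25 to 5.93). ENSMUST00000159438 was at 0.639 and 2.61 FPKM, 4.09-fold higher. Its interval was wide, 1.09 to 44.9, at about 2.30 input reads. Neither was listed for Mettl3.

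With the input at 0, ENSMUST00000159663, the only listed Gas5 transcript not annotated as retaining an intron, was at 3.38 FPKM in the Mettl3 RIP and 10.8 FPKM in the Zfp217 RIP, about 6.72 and 15.7 reads. ENSMUST00000160429 was at 9.55 and 6.17 FPKM. ENSMUST00000065709 (2.26 FPKM) and ENSMUST00000159890 (1.63 FPKM) were listed only for Mettl3, and ENSMUST00000161623 (4.59 FPKM) only for Zfp217. These transcripts are short, 346 to 1066 bases, and hold no base that is absent from all other listed Gas5 transcripts. A value of 0 in the input therefore describes how reads were divided as well as their number. The summed Gas5 level, over different transcripts in each table, was 22.2 FPKM for Mettl3 and 40.7 FPKM for Zfp217.

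Of the 8 listed Gas5 transcripts, 7 are annotated as retained-intron transcripts in GENCODE M21. Within their exons, 4 hold at least 1 whole snoRNA gene of the 10 in Gas5, and ENSMUST00000162163 holds 3. Snord78 is one of them, at bases 1066 to 1131 of that transcript. Its sequence is given to show what the retained intron carries (plus strand, chr1:161036984-161037049, capitals for the letters CTGA of box D, a conserved snoRNA element).
Snord78: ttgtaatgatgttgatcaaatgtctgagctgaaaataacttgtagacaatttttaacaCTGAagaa
None of the 10 snoRNA genes was listed under its own transcript in either table. Snord78, at 66 bases, is shorter than the estimated mean fragment of 136 bases, so its absence does not show a low level. Gas5 lies on chromosome 1 from 161034422 to 161038539, on the plus strand.

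The antibodies were compared directly on the 6 transcripts in both tables, after bringing the Zfp217 table to the scale of the Mettl3 table. Tug1 ENSMUST00000144852 stood at 38.4 FPKM with the Mettl3 antibody and 6.73 FPKM with the Zfp217 antibody, a 5.71-fold difference (4.95 to 6.62). Neat1 ENSMUST00000174829 stood at 11.5 and 2.00 FPKM, a 5.77-fold difference (3.26 to 11.9). These 2 of 6 were at least 2-fold higher for Mettl3, against 5.61% of the 4026 transcripts in both tables. In the other direction, 1 of 6 passed (background 3.28%): Gas5 ENSMUST00000159663 was 3.17-fold higher in the Zfp217 RIP (interval 1.21 to 8.91). Tug1 ENSMUST00000132077 was 1.43-fold higher in the Mettl3 RIP (1.22 to 1.68). The intervals of Gas5 ENSMUST00000160429 (0.981 to 2.63) and ENSMUST00000162163 (0.611 to 1.23) included 1. The estimated levels of transcripts of the same gene thus differed in how they compared between the antibodies, for Tug1 as for Gas5. These intervals leave out the error of dividing reads among overlapping transcripts. Gas5 ENSMUST00000159663 rested on about 6.72 and 15.7 reads and held no base of its own. Neither did Neat1 ENSMUST00000174829. Tug1 ENSMUST00000144852 held 60 of 4720, set against the other listed Tug1 transcripts only.

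If 1 FPKM and 1.5-fold were the only limits of the tables, they also bound the sums for transcripts listed in at least 1 table. The bounds below depend on that condition and leave out counting error. Transcripts listed in neither table have no known level, so these are not bounds for whole genes (3 of 8 annotated Tug1 transcripts and 3 of 4 of Neat1 were listed). The 3 Tug1 transcripts together were at most at 24.1 FPKM in the Zfp217 RIP on the Mettl3 scale, so that their 60.2 FPKM in the Mettl3 RIP was at least 2.50 times as high. The same ratio was at least 1.36 for the listed transcripts of Neat1, 1.45 for those of Rian and 1.4 for that of Tsix. A transcript listed for Mettl3 alone reaches or exceeds its Zfp217 limit by construction. This holds for all those of Rian and Tsix and for the abundant ones of Neat1. The Rian and Tsix bounds therefore restate the ratio to the input and rest on no measured Zfp217 level. For the 8 Gas5 transcripts these values had the opposite order. They summed to 40.3 FPKM in the Zfp217 RIP on the same scale, against at most 30.2 FPKM in the Mettl3 RIP. The ratio was at least 1.33. That Zfp217 sum includes short transcripts with few reads, about 15.7 for ENSMUST00000159663, 11.6 for ENSMUST00000159438 and 8.46 for ENSMUST00000161623. No counting interval was computed for any of these sums, of Gas5 or of the other genes, so their order is not established. The direction for the Meg3 transcripts is not determined. Of the member transcripts, 9 of 15 in the Mettl3 table were absent from the Zfp217 table (background 57.6%), and 5 of 11 the other way round (background 50.4%).

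**Figure D4:**
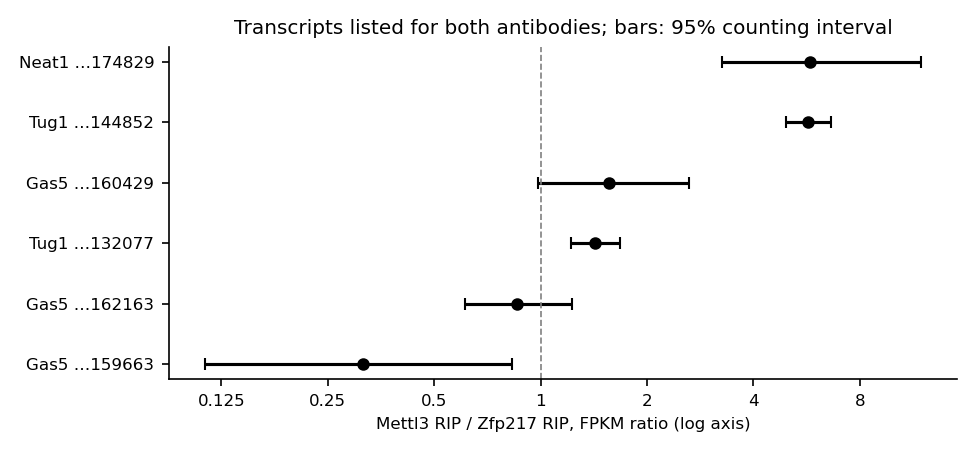
FPKM ratio of the Mettl3 RIP to the Zfp217 RIP (log axis) for the 6 member transcripts listed for both antibodies, with 95% counting intervals. Neat1 ENSMUST00000174829 and Tug1 ENSMUST00000144852 lie near 6 and Gas5 ENSMUST00000159663 lies below 1; counting intervals do not stand for replicate error.

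Because Mettl3 writes m6A within a consensus sequence, the letters GGACT, its most used core, were counted on the sense strand of each listed transcript that GENCODE M21 holds (18 of 20), with the reverse complement AGTCC beside them. Isoforms of a gene share most of their matches. Among 11625 listed transcripts of at least 300 bases, 77.7% held GGACT, at a median of 0.981 matches per kilobase, and the median for AGTCC was 0.846. Tug1 ENSMUST00000144852 held 7 matches (1.48 per kilobase) and 3 of the reverse complement. The short Neat1 ENSMUST00000174287 held 6 (2.00 per kilobase) and none of the reverse complement, and the long form held 23 (1.11 per kilobase) and 11. Meg3 ENSMUST00000143836 held 4 matches (2.11 per kilobase). Tsix held none in 4306 bases, where 98.2% of listed transcripts within 25% of its length held at least 1, and it held 5 of the reverse complement. The Malat1 transcript held none, at a length where 45.2% held at least 1. Of the 8 Gas5 transcripts, 7 held GGACT and none held AGTCC.

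The first match in 1 listed transcript of each of 4 genes is shown with the 10 bases on either side (GGACT in capitals). It lies at chr11:3646787-3646811 (minus strand) for Tug1, chr19:5845118-5845142 (minus) for Neat1 and chr12:109544969-109544993 (plus) for Meg3. For Gas5 it lies across a splice junction, chr1:161036004-161036221 (plus).
Tug1 ENSMUST00000144852 match: ctgccaccatGGACTccaggctccc
Neat1 ENSMUST00000174287 match: ggagacgggtGGACTgggggccctt
Meg3 ENSMUST00000143836 match: gggagagcccGGACTcactcatgag
Gas5 ENSMUST00000159663 match: aggcttacgaGGACTcgtcaggaag
The files hold 1 value per transcript, so whether any match was methylated or bound was not tested.

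**Figure D5:**
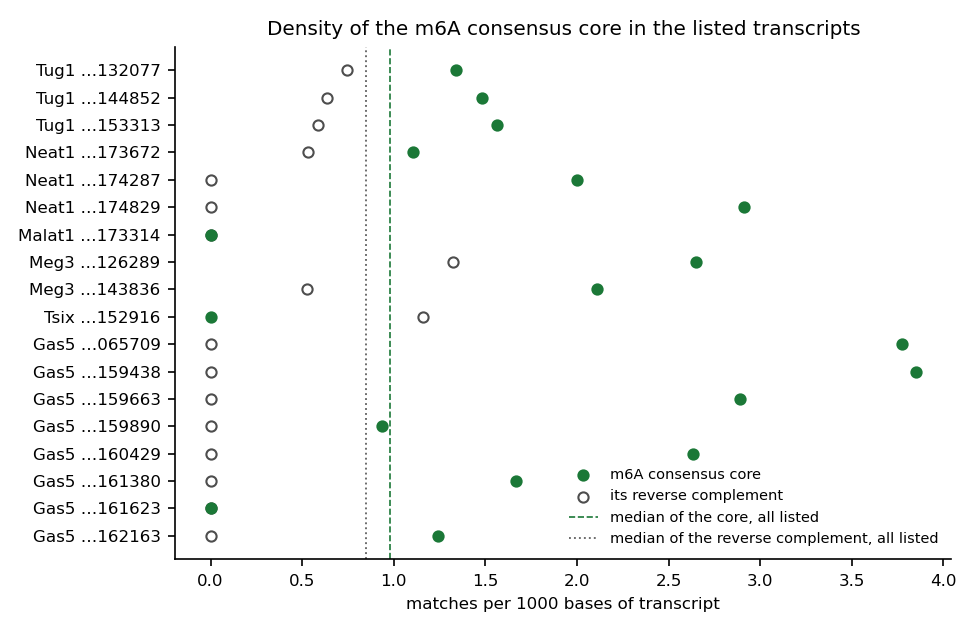
Matches per kilobase to the m6A consensus core (filled) and to its reverse complement (open) in the 18 member transcripts with a sequence, with the medians of 11625 listed transcripts as lines. Tsix shows the reverse complement alone, and at Malat1 and Gas5 ENSMUST00000161623 both are 0.

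Of 36 other named long noncoding RNAs, 10 were listed in either table, 8 for Mettl3 (9 transcripts) and 5 for Zfp217 (6 transcripts). At least 2-fold higher were 5 of 9 transcripts for Mettl3 (background 57.7%) and 4 of 6 for Zfp217 (background 58.4%). Of these, 2 of the 5 and 3 of the 4 had an input under 0.01 FPKM and passed by construction. The median log2 ratios were 1.13 and 1.26, and 1.08 and 1.10 over all listed transcripts. Lncenc1, a noncoding RNA of embryonic stem cells, went from 21.4 to 82.1 FPKM in the Mettl3 RIP, 3.84-fold higher (3.41 to 4.34). 1700020I14Rik went from 5.24 to 22.2 FPKM, 4.24-fold higher (3.70 to 4.86). Neither was listed for Zfp217. Mirg, which follows Rian in the imprinted cluster, was at 1.19 and 1.95 FPKM in the input and the Mettl3 RIP, 1.64-fold higher, and was likewise not listed for Zfp217. Nespas, an imprinted antisense RNA, went from 2.70 to 5.22 FPKM for Mettl3 (1.93-fold, 1.09 to 3.96). Of the snoRNA hosts, Snhg12 was 1.89-fold higher for Mettl3 (0.971 to 3.99), and Snhg1 1.90-fold higher for Zfp217. Zfas1 was 3.96-fold higher for Mettl3 (0.720 to 30.6) and 8.48-fold for Zfp217 (1.64 to 61.7), from inputs of 0.670 and 0.677 FPKM. A Snhg3 transcript was at 2.77 FPKM for Mettl3 and 1.47 FPKM for Zfp217, with the input at 0. The nuclear RNA Firre was listed for both antibodies with ENSMUST00000136518, 1.57-fold (0.801 to 3.41) and 1.84-fold higher (0.896 to 3.96). It also appeared with a further transcript in each table, at 2.84 FPKM against 0 for Mettl3 and 2.14 FPKM against 0.00239 for Zfp217. Ftx, a neighbour of Xist, was listed for Zfp217 alone, at 1.33 FPKM against 0.

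Over the input and both RIPs (3 libraries, log2 of FPKM + 1), the transcript nearest to Tug1 ENSMUST00000144852, among 1400 that both tables listed with 1 FPKM or more of input, was ENSMUST00000161707 of Psat1, an enzyme of serine synthesis, at a distance of 0.40. It was at 1.94 FPKM in the input, 44.4 in the Mettl3 RIP and 7.09 in the Zfp217 RIP. Zmat3 (distance 1.04) and Cpne3 (1.27) followed further off. The nearest to Gas5 ENSMUST00000162163 were transcripts of Mkrn2 (0.027), Ssr4 (0.088) and Odf2 (0.12), all close by. Likeness was not computed for the other genes, which lacked such a transcript.

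In such bulk libraries, a higher RIP level alone cannot be assigned to more cells holding the RNA, more RNA per cell or a larger bound share. For a ratio to the input, a larger bound share and unspecific capture cannot be told apart without a control antibody. Beside each Zfp217 value stands a lower depth than for Mettl3, about 6875000 against 9425000 scaled fragments, with 5650000 in the input.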

How the data were processed

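RNA from nuclear lysates of CCE cells was collected with an antibody and sequenced with the TruSeq RNA kit, per the labels' protocols. Per the submitters' processing notes, the build was mm9 and the tools included TopHat2 2.0.8 with Bowtie2, Cufflinks and Cuffdiff, after CASAVA 1.4. What each tool was set to do is not stated there. The authors deposited 1 table per antibody with FPKM values of the input and the RIP per Ensembl transcript. Every listed RIP value was at least 1 FPKM and at least 1.5-fold above the input. Whether other limits applied is not stated. Groups came from the sample titles and antibody labels. The same input library, scaled apart in each table, was 0.989 times as high in the Mettl3 table (median of 2813 transcripts), so ratios were taken within a table and the Zfp217 values multiplied by this factor to compare antibodies.

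Log2 ratios used a pseudocount of 1 FPKM, and 2-fold was the rule of size. No fold is given for inputs under 0.01 FPKM. The value of 1 fragment was estimated from short noncoding RNAs of 150 to 329 bases, where FPKM values are whole multiples of it once the fragment length (mean 136, SD 20 bases) is allowed for. Within 0.04 of a whole number were 29 of 40 values for the Mettl3 RIP, 30 of 38 for Zfp217 and 7 of 8 for the input. The estimate was first run on simulated whole reads made with the same length model. That run does not test the length model or a library with as few values as the input. Counting intervals (95%) are exact binomial (Clopper-Pearson). Annotation, exons and sequences came from GENCODE M21 on GRCm38, and no coordinate from mm9. Of the identifiers, 88.3% and 88.8% matched; the other long noncoding RNAs were also matched by their M21 symbol. Named were all member transcripts, all listed RNAs of the other list, and the 3 nearest transcripts by distance. The members and lists were chosen with earlier results of these data known. Python 3.11.15, pandas 2.3.3 and scipy 1.17.1 were used. Each result was recomputed under 7 alternatives.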

Additional observations from a re-analysis of the deposited data

How the results depend on the processing

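No paired analysis was possible because each group had 1 library, and for the same reason no replicate could be left out. Counts of transcripts at least 2-fold higher are given in the order Mettl3 members, Zfp217 members, members higher for Mettl3 than for Zfp217, other RNAs for Mettl3 and other RNAs for Zfp217. They were 9, 10, 2, 5 and 4 as reported. They were 5, 5, 1, 3 and 2 as plain ratios with an input above 0, and 4, 4, 1, 2 and 0 with an input of at least 1 FPKM. Without inputs under 0.01 FPKM they were 4, 5, 1, 3 and 1. Fewer transcripts remain under these limits. Summed per gene, 4 of 6 genes passed for Mettl3 and 4 of 5 for Zfp217. For Zfp217, Neat1 and Meg3 had a summed input of 0 and passed by construction, which left Tug1 and Gas5. The share over all genes was not computed. Relative to the median of all listed transcripts, 4 of 15, 3 of 11, 2 of 6, 0 of 9 and 0 of 6 passed. The share of all listed transcripts that pass this rule was not computed, so these counts have no background beside them. A mean of at least 1 FPKM left 2 of the other RNAs for Zfp217. All other counts, including those with a pseudocount of 0.1 FPKM, stayed within 1.5 times. Relative to that median, Gas5 ENSMUST00000162163 in the Mettl3 RIP, just above 2-fold as reported, changed sign to -0.077 (log2). The 7 member ratios reported below 2-fold turned negative too. For Mettl3 these were Neat1 ENSMUST00000174287 (-0.28) and ENSMUST00000173672 (-0.52), Tug1 ENSMUST00000153313 (-0.33), Tsix (-0.38), Meg3 (-0.51) and Rian ENSMUST00000166642 (-0.52), and for Zfp217 Malat1 (-0.40). That median includes inputs of 0. Among transcripts with an input of at least 1 FPKM it was lower, 0.824 for Mettl3 and 0.689 for Zfp217. For Mettl3, Neat1 ENSMUST00000174287 (0.800) and Tug1 ENSMUST00000153313 (0.751) were close to it, and the others lay further below. Gas5 ENSMUST00000162163 (1.01) lay above it. For Zfp217, Malat1 (0.691) was level with it. At the estimated depth, the counting interval of Malat1 ENSMUST00000173314 (about 9.31 input reads) included 1.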
